A study of Mus musculus with 6 samples.

Results

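The 10 immediate early genes of the AP-1, EGR and NR4A families described here were followed in subcutaneous mouse tumours, with an overexpressed microRNA, miR-155, turned off or left on. They are Fos, Fosb, Jun, Junb, Jund, Atf3, Egr1, Egr2, Egr3 and Nr4a1, and they were chosen by name. The authors' deposited table lists 9 of them under these symbols. It lists Jund as Jund1, an older symbol that RefSeq assigns to Jund alone. All 10 of these genes were tested, among 18543 tested features of 29209 in the table.

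The tumours grew in the flanks of NCr nude mice, which lack a thymus, after injection of spleen cells from diseased mir-155LSLtTA animals. In this line doxycycline (DOX) shuts off the miR-155 transgene, which the tetracycline transactivator otherwise drives. In 3 samples, with miR-155 withdrawn, the mice had eaten chow with 2.3 mg per kg of DOX for 16 hours before harvest. In the other 3, with miR-155 still overexpressed, no treatment was given. All 6 samples therefore carry the transgene. Because DOX was not given to a tumour that lacks it, the drug's own effects and the loss of miR-155 cannot be told apart. All tumours were dispersed to single cells before RNA was extracted, a step known to induce immediate early genes in other tissues, and its part in the values was not tested.

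Immediate early genes are switched on within minutes of a signal, without new protein synthesis, and their mRNAs are short-lived. FOS and JUN proteins pair through leucine zippers to form AP-1, which binds DNA as a dimer. EGR proteins are zinc finger factors that bind GC-rich sites, and NR4A proteins are orphan nuclear receptors. In lymphocytes these genes respond to antigen receptor and growth factor signals, largely through MAP kinases.

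The authors' deposited table gives 1 ratio between both groups for each gene, with an unadjusted and an adjusted p. Single samples, group means and sequencing depth were not analysed here, so no value per sample can be shown and overlap between samples is unknown. Each ratio was read as DOX over no DOX. The table does not state that order, and every direction below turns round if the authors divided the other way. "Rose" and "fell" are used of genes whose adjusted p was under 0.05. A finite ratio above 0 means that the gene had signal in both groups. The standard errors given below are approximate, worked back from the log2 fold and the unadjusted p as if the test followed a normal curve. Whether replicates came from different mice is not given in the labels, and the p-values then measure only the spread between these tumour samples, which may be technical variation alone. In mixed tumour tissue, fewer cells of a type and less RNA per cell cannot be told apart.

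The sequences below show which matches to known control elements lie near the starts of the 3 members with the largest finite folds. Each is a RefSeq promoter window, build GRCm38.p6, from 250 bases before to 50 after the transcription start, written 5′ to 3′ on the gene's strand. Capitals mark matches to TGACG or its reverse complement CGTCA, the core of the cyclic AMP response element (CRE), or to TGACATCA, a CRE-like site in Jun. CRE and CRE-like sites are bound by CREB, ATF and AP-1 factors, and binding at these matches was not tested. The Fos window is chr12:85473640-85473939 on the plus strand, that of Jun is chr4:95052173-95052472 on the minus strand, and that of Nr4a1 is chr15:101266596-101266895 on the plus strand.
Fos: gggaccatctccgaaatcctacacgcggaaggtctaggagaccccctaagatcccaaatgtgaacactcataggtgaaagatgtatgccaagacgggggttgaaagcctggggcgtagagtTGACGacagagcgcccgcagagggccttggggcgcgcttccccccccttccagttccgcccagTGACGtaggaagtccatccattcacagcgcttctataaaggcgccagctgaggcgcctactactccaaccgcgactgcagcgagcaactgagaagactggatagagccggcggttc
Jun: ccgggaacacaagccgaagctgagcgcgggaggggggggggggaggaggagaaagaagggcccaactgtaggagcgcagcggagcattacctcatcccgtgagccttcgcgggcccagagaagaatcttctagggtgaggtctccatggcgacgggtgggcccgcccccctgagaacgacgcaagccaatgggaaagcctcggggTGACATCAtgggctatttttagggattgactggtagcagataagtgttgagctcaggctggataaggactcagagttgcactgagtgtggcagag
Nr4a1: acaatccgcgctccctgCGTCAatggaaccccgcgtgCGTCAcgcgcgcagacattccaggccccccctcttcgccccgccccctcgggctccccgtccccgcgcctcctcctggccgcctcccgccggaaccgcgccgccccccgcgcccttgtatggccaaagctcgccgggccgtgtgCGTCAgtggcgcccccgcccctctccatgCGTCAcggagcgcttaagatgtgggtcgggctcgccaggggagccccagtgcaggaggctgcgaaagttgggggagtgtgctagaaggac

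The promoter table held windows for 8 members, Egr1 and Egr3 aside, and 5 overlapping or neighbouring windows for Egr2 alone. Both strands were searched for each motif. In Fos the CRE cores begin 129 and 66 bases before the start, and a TATAAA sequence begins 33 bases before it. Nr4a1 has 4 such cores, which begin 233, 213, 69 and 40 bases before its start. Jun holds TGACATCA 45 bases before its start and no TGACG. The searches for the core, TGACATCA and TATAAA were chosen after seeing the data, so their counts are a description. In all, 6 of the 8 members have a core in at least 1 window, as do 23.0% of all 27025 genes with a window. Counted by window, 8 of the members' 12 hold one, and so do 20.8% of all 32851. The site TGACATCA stands in 3.62% of windows and TATAAA in 13.6%. The full CRE TGACGTCA (1.79% of windows), the AP-1 site TGACTCA or TGAGTCA (5.20%) and the NR4A site AAAGGTCA (1.51%) had no match in these windows. The EGR site GCGNGGGCG (5.55% of windows) was matched in Fosb, 50 bases before its start, and in Nr4a1, 60 bases before. Where a core and a longer motif overlap, both were counted.

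The CArG box, which serum response factor (SRF) binds, stands in 1.63% of windows. Egr1 and Egr3 had no window and were not searched. Among the 8 members with a window it was matched in Egr2 alone, in 4 of its 5 windows. These share 2 different boxes, printed here in capitals with 10 bases on each side. The boxes are the only exact matches to the CArG letters in the members' windows, and binding by SRF was not tested. They lie on the plus strand of build GRCm38.p6, at chr10:67537484-67537513 for the upstream box and chr10:67537787-67537816 for the downstream box.
Egr2 upstream box: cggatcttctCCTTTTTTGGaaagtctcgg
Egr2 downstream box: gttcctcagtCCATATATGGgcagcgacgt
The well-known serum response element of Fos lies farther upstream than its window reaches. The absence of a match says only that these letters are missing from the window.

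**Figure D1:**
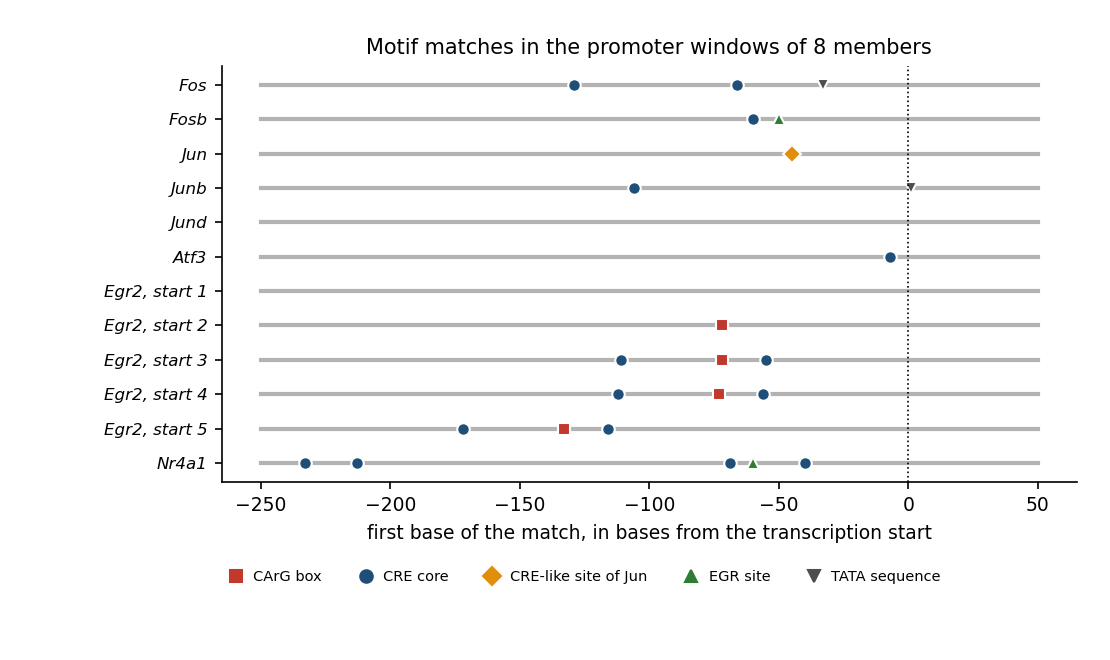
Motif matches in the 12 promoter windows of 8 members, 1 line per window, with the position of the first base of each match in bases from the transcription start (dotted line) on the horizontal axis. Nr4a1 carries 4 CRE cores, Fos carries 2, Egr2 carries the CArG boxes, and no searched motif was found in Jund.

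Matches to miR-155 are shown because a microRNA acts on transcripts whose 3' UTR pairs with its seed. Fos has been reported as such a target in dendritic cells. The mature RefSeq sequence of miR-155-5p (build GRCm38.p6, chr16:84714143-84714165, plus strand) is printed with its seed, bases 2 to 8, in capitals. Below it stand the places in the annotated 3' UTRs (GENCODE M21) of Fos and Jun whose letters match bases 2 to 7, with GCATTA in capitals.
miR-155-5p: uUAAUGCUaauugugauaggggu
Fos site: gcccgagctggtGCATTAcagaga
Jun site: aacctctttgctGCATTAtccata
The site begins 56 bases after the stop codon in Fos and 752 bases after it in Jun. A 7-base seed match, AGCATTA or GCATTAA, was found in the 3' UTR of 0 of the 10 members and of 12.6% of 21022 genes with a 3' UTR. The shorter GCATTA, searched for after seeing the data, was found in 2 of the 10, Fos and Jun, and in 19.5% of all genes. The members' share is thus close to the background, and action of miR-155 on Fos or Jun was not tested.

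One of the 10 members passed the test. Jun, the main DNA-binding partner of FOS in AP-1, rose to 4.18 times its no-DOX level in the authors' deposited table (log2 fold 2.06, adjusted p = 0.0147). Its approximate standard error was 0.63, which gives a 95% interval of 0.83 to 3.30 on the log2 scale. Of all tested features, 11.3% passed in either direction and 5.72% as higher, and 5.61% as lower, so 1 passing gene in 10 is close to the background. At an adjusted p under 0.1 the count was 2, Jun and Jund, with a background of 15.1%, and under 0.01 it was 0, with one of 6.17%. A Bonferroni adjustment left 0 members and 1.57% of features. Jun alone remained when finite folds alone were adjusted (14.0% of them passed) or when at least a 2-fold change was required (11.1%). Of the 10, 8 had a ratio above 1 and 2 a ratio below 1, while of all tested features 11007 lay above 1 and 7536 below. The median log2 fold over the 9 members with a finite fold was 0.81, and over all 15784 features with a finite fold it was 0.17. Macrophage and fibroblast markers lay higher in the same comparison, with medians of 2.16 and 2.26, and their part in these values was not tested.

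**Figure D2:**
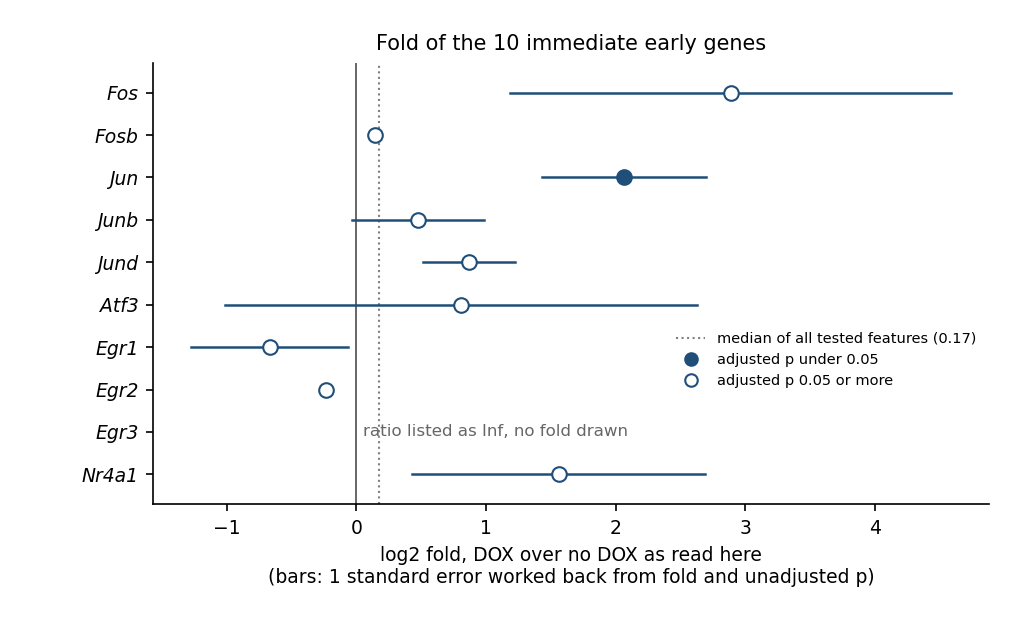
Log2 fold of each member, DOX over no DOX as read here, on the horizontal axis, with bars of 1 approximate standard error. The filled point marks adjusted p under 0.05, open points mark larger values, and the dotted line is the median of all tested features with a finite fold (0.17). Jun is the filled point at 2.06, Fos has the largest fold and a wide bar, and Egr1 and Egr2 lie left of 0.

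The 3 JUN genes lay above 1, in steps. Jund, the JUN protein that is usually present in resting cells, had a ratio of 1.83 in the authors' deposited table (log2 fold 0.87, unadjusted p = 0.0142, adjusted p = 0.0958). This fold is less than that of Fos or Nr4a1, but its approximate standard error of 0.35 was the smallest that could be worked out among the members, lower than for all but 9.04% of features. Its 95% interval ran from 0.17 to 1.57 on the log2 scale, and it did not pass the adjusted threshold. Junb, a JUN protein that can restrain Jun in some settings, had a ratio of 1.39 in the authors' deposited table (log2 fold 0.48, adjusted p = 0.730). The interval for Junb was -0.53 to 1.48 on the log2 scale and overlaps those of Jun and Jund. The table allows no test of one gene against another, so the order Jun, Jund, Junb is a description.

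Of the FOS genes, Fos had the largest finite fold of the 10, a ratio of 7.39 in the authors' deposited table (log2 fold 2.89), and its adjusted p was 0.327. The approximate standard error of Fos was 1.70, larger than for 83.9% of features, and its 95% interval ran from -0.45 to 6.22 on the log2 scale. The ratio of Fos thus exceeds that of Jun, and its approximate standard error is larger too. That error restates the fold and the p, and the spread between samples was not seen. Fosb, a close relative of Fos, had a ratio of 1.11 in the authors' deposited table (log2 fold 0.14, adjusted p = 1). Subtracting the median of all features, 0.17, takes the Fosb fold to -0.03.

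Atf3, a stress-induced factor of the ATF family that also pairs with JUN proteins, had a ratio of 1.75 in the authors' deposited table (log2 fold 0.81, adjusted p = 0.974). Its interval, -2.76 to 4.38 on the log2 scale, was the widest that could be worked out and covers both directions. Nr4a1, the receptor also called Nur77 that antigen receptor signals induce in lymphocytes, had a ratio of 2.95 in the authors' deposited table (log2 fold 1.56, adjusted p = 0.480). Its interval ran from -0.65 to 3.77 on the log2 scale.

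None of the 3 EGR genes passed. Egr1 and Egr2 had ratios below 1, and Egr3 one above 1. Egr1, the most widely induced EGR factor, had a ratio of 0.629 in the authors' deposited table (log2 fold -0.67, adjusted p = 0.634). The approximate standard error of Egr1, 0.61, was about that of Jun, and its interval ran from -1.86 to 0.52 on the log2 scale. A fall to 0.276 of the no-DOX level and a rise to 1.43 times it both lie within this range. Egr2, which restrains activated lymphocytes, had a ratio of 0.851 in the authors' deposited table (log2 fold -0.23, adjusted p = 1). Egr3, a close relative of Egr2, is given a ratio of Inf in the authors' deposited table (adjusted p = 1), so it was listed at 0 in the denominator group and no fold is given.

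**Figure D3:**
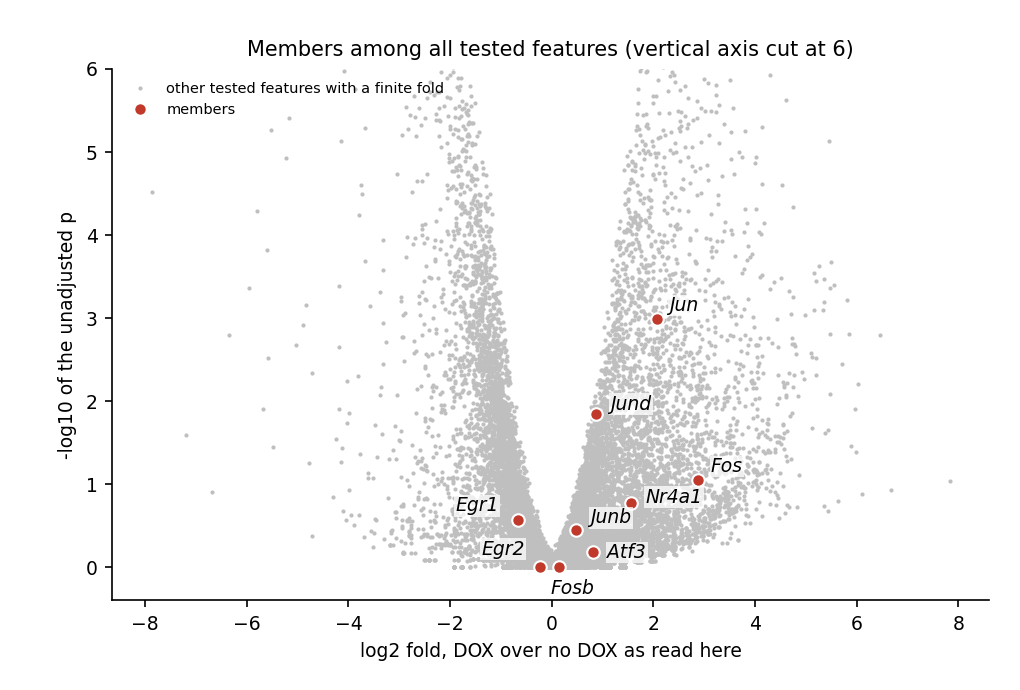
Log2 fold, DOX over no DOX as read here (horizontal axis), against -log10 of the unadjusted p (vertical axis) for tested features with a finite fold, with 9 members in red and the others in grey. The vertical axis is cut, so the features with the smallest p are not drawn. Jun stands alone above the other members, Jund comes next at a smaller fold, and Fos lies far to the right at a larger p (0.0901).

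Among the 3 members with a finite fold of at least 2 in either direction (Fos, Jun and Nr4a1), 1 passed, and among all 6792 features with such a finite fold 29.9% did. Egr3, with its ratio of Inf, is in neither count. At an unadjusted p under 0.05 there were 2 members, Jun and Jund, against 22.4% of all tested features.

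Beyond their roles, features of the members' transcripts were set beside those of all genes. Jun, Junb and Jund each have 1 exon, as do 6.82% of 21877 genes with a protein-coding transcript in GENCODE M21. The median number of exons was 2 over the members, which ranged from 1 to 8, and 7 over all genes. All 10 have at least 1 ATTTA in the 3' UTR, the core of AU-rich elements through which Zfp36 and related proteins speed mRNA decay, as do 65.2% of genes. Egr3 has 7 copies, Fos and Jun have 4 each, and Fosb and Jund have 1 each. The members' transcripts had a median GC content of 55.8%, against 49.1% over all genes, and a median length of 2759 bases, against 2681. Jund, the shortest at 1668 bases and the richest in GC at 67.1%, had a ratio above 1, and Egr1, the longest at 4484 bases, had one below 1. The next longest, Egr3 (3940 bases) and Fosb (3782 bases), had ratios above 1, and none of these genes passed.

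Relatives of the members were read from lists of genes. Counts in these lists stand against all tested features, of which 5.72% rose and 5.61% fell. Of those 18543 features, 11007 had a ratio above 1. Of 20 tested genes encoding other AP-1 partners and leucine zipper factors, 3 rose and 0 fell. Their median log2 fold was 0.61 over 19 finite folds. Bach2 (log2 fold 1.56, adjusted p = 0.0384) and Bach1 (1.24, 0.0403), repressors that bind sites overlapping those of AP-1, rose in the authors' deposited table. In the authors' deposited table Fosl2, a FOS relative, had a log2 fold of 2.26 (adjusted p = 0.157), and Fosl1 was listed without a p. In the authors' deposited table Batf, which pairs with JUN proteins in lymphocytes, had a log2 fold of -2.33, with an adjusted p of 0.0540. Its relative Batf2 was at 0.44 on the log2 scale (adjusted p = 1) in the authors' deposited table, and Batf3, listed under an older name, had a ratio of Inf.

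Other EGR and NR4A genes and the EGR corepressor genes together gave no calls among 4 tested. Nr4a3, per the authors' deposited table, had a log2 fold of 2.18 (adjusted p = 0.935) with an approximate standard error of 4.03, Nr4a2 a ratio of Inf (adjusted p = 1), and Egr4 was listed without a p. In the authors' deposited table the EGR corepressor genes Nab1 (log2 fold 0.41, adjusted p = 0.701) and Nab2 (0.23, adjusted p = 1) had no call there.

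Of 34 other immediate early genes, 3 rose and 1 fell, and 28 had a ratio above 1. Their median log2 fold was 0.95 over 33 finite folds. Over all 18543 tested features, 5.72% rose, 5.61% fell and 11007 had a ratio above 1. The median over all finite folds was 0.17. Btg2, an antiproliferative gene (log2 fold 1.44, adjusted p = 0.00108), Tnfaip3, an inhibitor of NF-kB (1.91, 0.0294), and Rgs2, an inhibitor of G protein signals (2.06, 0.0315), rose in the authors' deposited table. Myc fell by 4.80 on the log2 scale in the authors' deposited table (adjusted p = 4.34e-21). Ier2, picked after its value was seen, per the authors' deposited table had a log2 fold of -1.29 (adjusted p = 0.0984). Growth-linked Myc thus stands far from Jun although both are classed as immediate early genes.

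Genes of transcription factors and kinases in the signal pathways to immediate early genes were mixed, and their action on the members was not tested. Of all tested features, 5.72% rose and 5.61% fell. Of 14 SRF, ternary complex and CREB genes 1 rose, Creb1 (log2 fold 1.41, adjusted p = 0.00472 in the authors' deposited table), and their median was 0.08. Creb1 encodes CREB, a factor that binds CRE sites. In the authors' deposited table Srf, picked after its value was seen, had a log2 fold of -0.98 (adjusted p = 0.0865). Of 26 MAP kinases and upstream kinases 2 rose and 2 fell, with a median of -0.12. Braf (1.79, adjusted p = 0.000432) and Map3k5 (1.26, 0.00708), kinases upstream of ERK and of JNK and p38, rose in the authors' deposited table. Rps6ka1, a kinase downstream of ERK (-1.37, 0.00556), and Map2k3, a kinase of p38 (-1.11, 0.0481), fell in the authors' deposited table. Mapk8, the gene of the JUN kinase JNK1, was picked after its value was seen, and the authors' deposited table gives it a log2 fold of 1.96 (adjusted p = 0.166).

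Genes of MAP kinase phosphatases and feedback inhibitors, many of which ERK signals induce, had a median log2 fold of -0.74 over 16 genes, with 11 ratios below 1. Among all 18543 tested features, 7536 had a ratio below 1, 5.72% rose and 5.61% fell. Dusp16, a phosphatase that acts on JNK, rose (log2 fold 1.77, adjusted p = 0.00402) and Dusp7, which acts on ERK, fell (-2.16, 0.0103) in the authors' deposited table. In the authors' deposited table Spry4 (-4.02, adjusted p = 0.0504) and Dusp6 (-1.34, 0.105), both picked after their values were seen, did not pass.

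Of 15 tested genes described as AP-1 targets, 2 rose and 1 fell, and the median log2 fold was 1.46 over 14 finite folds. Among all tested features 5.72% rose and 5.61% fell. The protease genes Plau (2.26, adjusted p = 0.0176) and Mmp9 (2.17, 0.0252) rose in the authors' deposited table, and the cyclin gene Ccnd1 (-2.85, 0.00270) fell in it. Mmp9 is also a neutrophil marker. Over all 8 lists together, 12 of 138 tested genes rose and 8 fell, with a median of 0.23 over 134 finite folds. That share of 14.5% is near the 11.3% of all tested features.

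**Figure D4:**
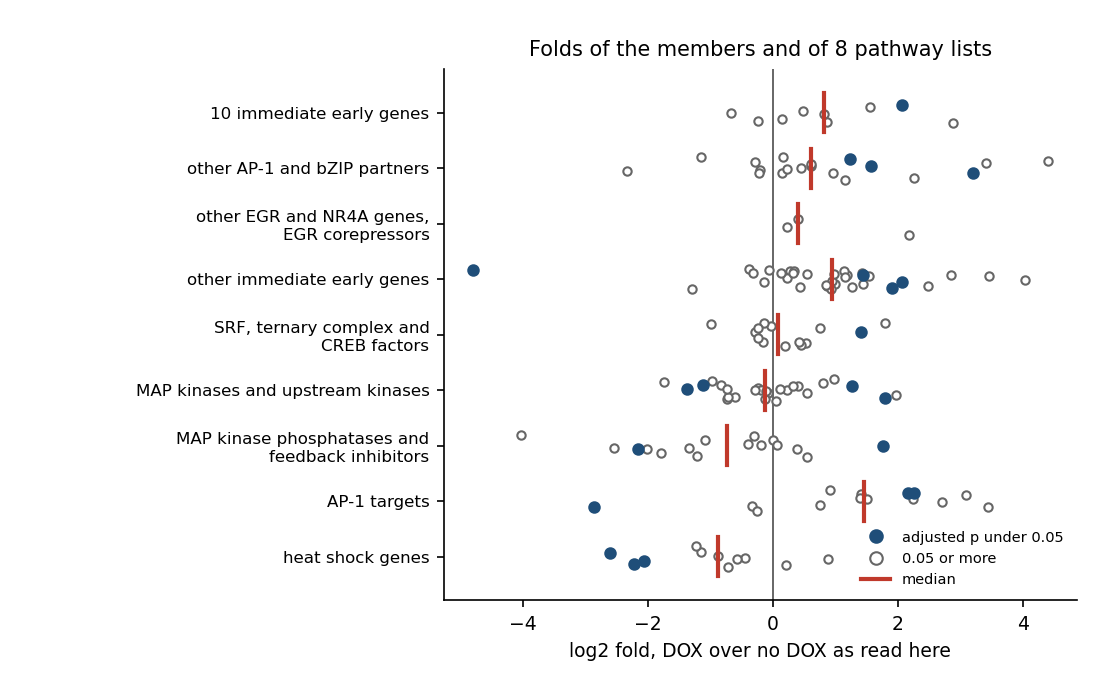
Log2 fold, DOX over no DOX as read here, of each gene with a finite fold (points), for the 10 members and the 8 lists, with a red line at each median. Filled points have adjusted p under 0.05. Medians run from -0.88 for heat shock genes to 1.46 for AP-1 targets, and the 10 members have 0.81.

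Markers of other cells were read in the same comparison, in which 5.72% of all tested features rose and 5.61% fell. All 13 tested macrophage markers had a ratio above 1 and 2 rose, with a median log2 fold of 2.16. All 9 fibroblast markers did too, 2 rose, and the median was 2.26. Of 8 neutrophil markers 7 had a ratio above 1 and 3 rose, with a median of 3.33 over 6 finite folds. All 11 B lineage markers had signal in both groups, and 6 had a ratio above 1 and 5 below. Of the 11, 3 rose and 1 fell, and their median was 0.41. Of 8 endothelial markers 6 had a ratio above 1, 0 rose and 1 fell, and the median was 1.28. Of 8 tested NK cell markers 7 had a ratio above 1, as did 3 of 4 erythroid and 3 of 6 T cell markers. NK cell markers had a median of 2.50 over 6 finite folds, erythroid markers 2.19 over 3 and T cell markers 0.24 over 6, with 0 calls in each. These medians exceed that of the 10 members (0.81) for macrophage, neutrophil, fibroblast, NK cell, endothelial and erythroid markers, and they stand below it for B lineage and T cell markers. Levels of these markers in each group were not analysed here. Of 11 tested heat shock genes, 3 fell and 0 rose, and the median log2 fold was -0.88. The chaperone genes Hsp90ab1 (log2 fold -2.61, adjusted p = 4.17e-09), Hspe1 (-2.05, 0.000142) and Hspd1 (-2.22, 0.000229) fell in the authors' deposited table.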

How the data were processed

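RNA from 6 tumour samples was sequenced after ribosomal RNA depletion, per the labels' protocols. The submitters' processing notes name the mouse build mm9 and the tools RSEM and DESeq, without versions. Per the file headers, the deposited table holds a fold change (a linear ratio) with its p-value before and after adjustment. Depth per sample is unknown. Features without a p (10666) were left out. A Benjamini-Hochberg adjustment of the deposited p-values over 18543 features differed from the adjusted p by at most 2.09e-06. Log2 folds were computed from the ratio with numpy 2.4.6 and pandas 2.3.3 in Python 3.11.15, and figures with matplotlib 3.10.9. Approximate standard errors came from dividing the size of the log2 fold by the normal deviate of its two-sided p (scipy 1.17.1), for p up to 0.9. The code that recomputes calls was tested on simulated data whose changed features lay far past every threshold. Weaker changes and ratios of Inf or 0 were not simulated, so this checks the code alone.

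The members and lists were chosen with earlier results of these data known. The text names all members, up to 6 called genes per pathway list (1 is not reported here), all EGR and NR4A relatives, and the FOS and BATF relatives, and says where it goes beyond this. Lists leave out the members, and a gene may stand in several lists. Older symbols were matched through RefSeq synonyms (GRCm38.p6). The annotation (GENCODE M21, GRCm38) is not the authors' build and served for transcript sequence alone: the longest protein-coding transcript and longest 3' UTR of each gene. The searches for the CRE core, the CRE-like site, the TATA sequence, the 6-base miR-155 match and the AU-rich pentamer were chosen after seeing the data.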

Additional observations from a re-analysis of the deposited data

How the results depend on the processing

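At an adjusted p under 0.1, 2 members were called, Jun and Jund. Under 0.01 the count was 0, and it was 0 under a Bonferroni adjustment of the authors' DESeq p-values, with 2 members at an unadjusted p under 0.05. It stayed 1, Jun, with only finite folds adjusted, with at least a 2-fold change required, and with current symbols alone, the last chosen after seeing the data. Over the 8 lists the count of 20 became 11 under 0.01 and 3 under Bonferroni, and over all features 2101 became 1145 and 291, by construction stricter. Elsewhere these 2 counts stayed within 1.5 times. Among the 9 members with a finite fold, subtracting the median of all features changed the sign of Fosb alone, which was not called. Limiting promoter windows to the 250 upstream bases lowered the share with each motif, by construction. No paired analysis was possible because the result comes from a table of 1 comparison with no columns per sample. For the same reason other normalizations, low-value filters and leaving out a replicate were not run. The deposited log2 column was not used, since some of its cells are not numbers.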
